A study of Mus musculus with 24 samples.

Results

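The 6 arrays of lung from wild-type mice given vehicle, numbered 13 to 18 in their titles, were described on their own, with no comparison between groups. They were chosen by title, and they are 6 of 24 arrays in the series, of which 20 carry values. The mice had the wild-type genotype and vehicle, without the drug, and were killed at 6 months of age. The series as a whole set Marfan mice and sildenafil, an inhibitor of the cGMP-degrading enzyme PDE5 given in drinking water from 6 weeks of age, against these controls, and its other groups were wild-type mice given sildenafil and Marfan mice given vehicle or sildenafil. The treatment text of the labels names sildenafil for all samples, these 6 included, whereas the titles and the design text call them vehicle. Strain, sex, litter, the hour of death, dissection and scan date are not given in the labels, and nothing beyond the planned 6 per group says that each array came from a separate mouse. Total RNA came from lung tissue as a whole, so fewer cells of a type and less RNA per cell cannot be told apart in any value below.

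Each value is a log2 level of a gene's probe set, summarised by the authors and then quantile-normalised here over the 6 arrays, so that all 6 share 1 distribution. Errors are standard deviations (SD) over n = 6 arrays, and 1 log2 unit is a doubling. The brightness of a probe set depends on its probes as well as on its RNA, so the order of brightness between genes is not an order of transcript number. Before this step the medians of the arrays averaged 5.66 ± 0.19, with array 18 the dimmest at 5.32. A gene was called above background where it passed, on all 6 arrays, the 95th percentile of that array's 23 background control probe sets, a threshold between 4.94 and 5.16. By this rule 10225 of 19494 genes, 52.5%, were above background, 7185 passed on no array and 2084 on some. This share of 52.5% is the one to set beside each count of list members below. The threshold lies well above the medians of the background controls, 2.60 to 3.26 on the 6 arrays. A gene that did not pass is therefore not shown to be absent. The number of arrays limits the precision of every SD given here.

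The lung is a gas exchanger in which thin alveolar type 1 cells lie against capillaries, and cuboidal type 2 cells secrete surfactant, a film of lipid and protein that lowers surface tension. Airways are lined by secretory club cells, which also metabolise foreign compounds, and by ciliated cells, which move mucus. Endothelium, fibroblasts, smooth muscle and resident macrophages make up most of the rest, and blood held in the vessels adds leukocytes, platelets and red cells.

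The labelled tissue was set beside lists of marker genes. The lists were drawn up with earlier results of these data known, so the counts are descriptions and not a test of the label. Of the 97 epithelial marker genes measured, 78 were above background, as were 33 of 35 for vessels, 35 of 47 for mesenchyme and 89 of 116 for immune cells. Of 104 genes that mark liver, pancreas, neurons, retina, testis, ovary, kidney or intestine, 1 passed. That gene was Nphs1, known for the slit diaphragm of the kidney glomerulus, with a level of 5.93 ± 0.38. Of marker genes of tissue that adjoins the lung 34 of 105 passed, 32.4%, a share below the 52.5% of all genes. The counts were 16 of 23, or 69.6%, for heart and 8 of 15, or 53.3%, for adipose tissue. They were 0 of 10 for nerve and glia and 0 of 4 for parathyroid and thyroid.

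**Figure D1:**
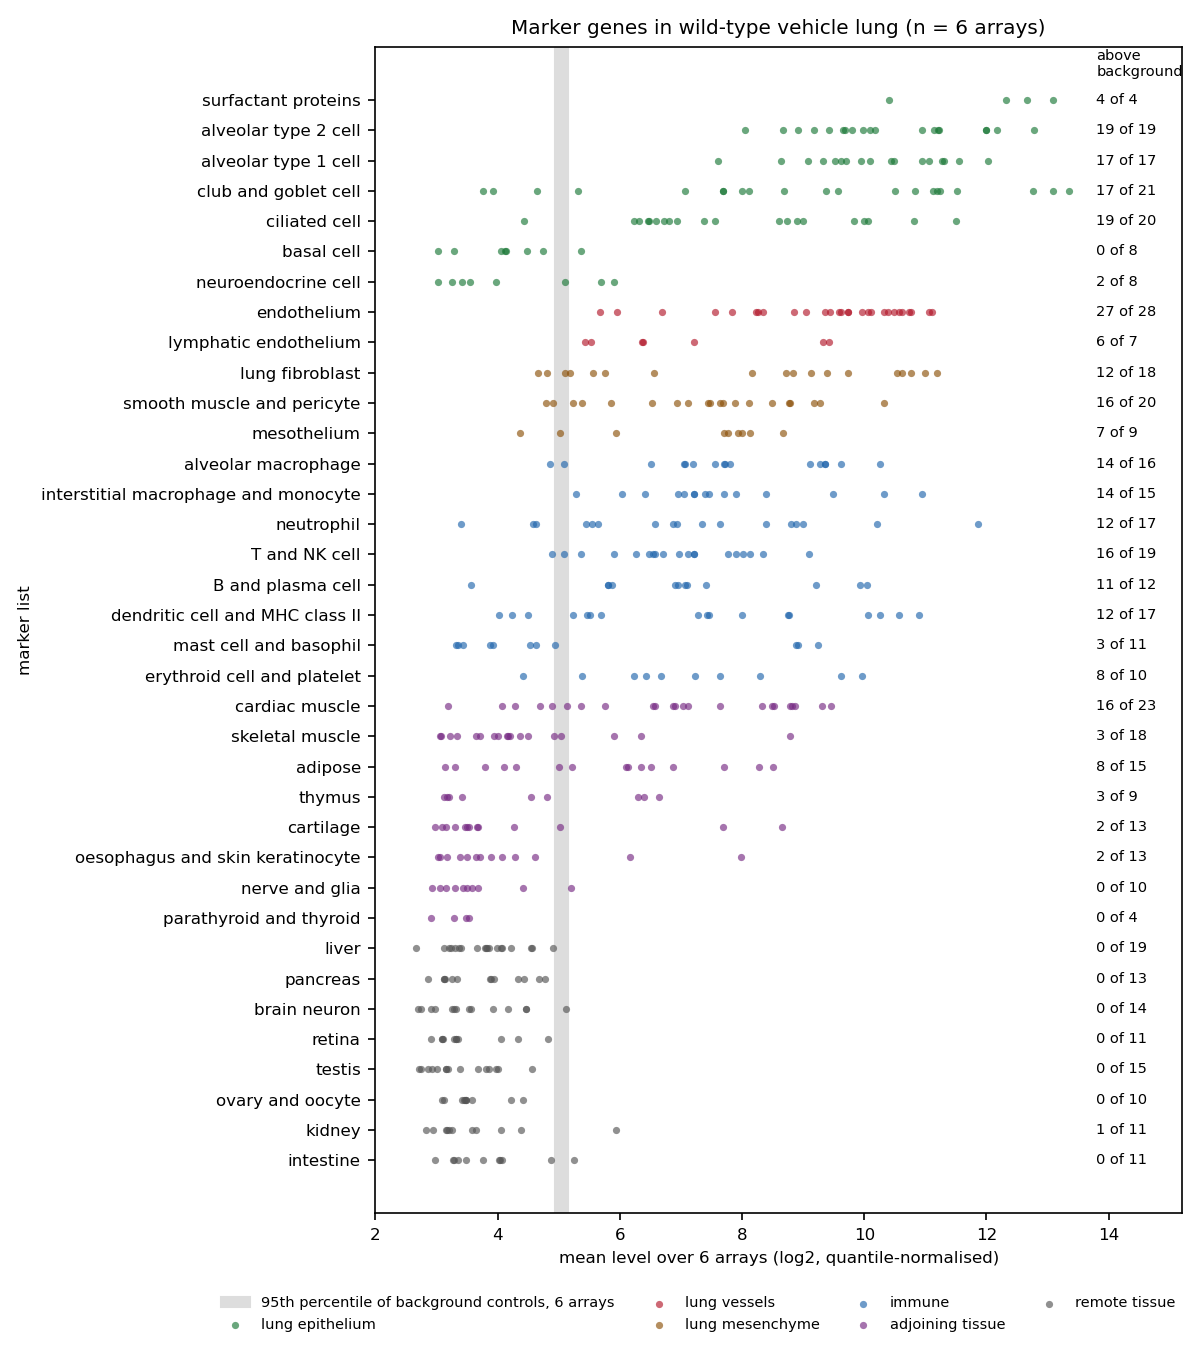
Mean level of each marker gene over the 6 wild-type vehicle arrays (log2, horizontal axis) by marker list (vertical axis), coloured by kind of list; the grey band spans the 95th percentile of the background controls on the 6 arrays, 4.94 to 5.16, and the numbers at the right count genes above background on all 6 arrays. Of the remote-tissue genes 1 of 104 was above background, and of the surfactant proteins 4 of 4.

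The 4 measured surfactant protein genes were all above background. Sftpc encodes a hydrophobic protein made by type 2 cells alone, and its level was 13.05 at the lowest, 13.06 at the median and 13.17 at the highest. It was among the brightest probe sets of each array, where quantile normalisation leaves only a few values to take, so this range understates its spread, and on the deposited scale its SD was 0.15. Sftpb, which organises the lipid into a film, had 12.03 at the lowest, 12.33 at the median and 12.51 at the highest, and array 18 was the low one. Sftpa1 and Sftpd encode collectins, lectins that also bind microbes, and their levels were 12.66 ± 0.06 and 10.41 ± 0.09. The other type 2 genes were above background in 19 of 19 cases, with a list mean of 10.37 ± 0.10. Among them were Lyz2, the lysozyme that macrophages also make (12.78 ± 0.05), the chemokine Cxcl15 (12.18 ± 0.11), and the phosphate carrier Slc34a2 (11.99 ± 0.22). Lipid synthesis was represented by the desaturase Scd1 at 11.99 ± 0.28 and the fatty acid synthase Fasn, which had the widest spread of the list at 8.68 ± 0.41. Fasn reached 9.24 on array 17 and was between 8.21 and 8.43 on arrays 15, 16 and 18.

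Type 1 cells were represented by 17 of 17 genes, and the mean of the list was 10.15 ± 0.10. Ager, the receptor for advanced glycation end products that is abundant on these cells, had levels from 11.68 to 12.23. Cldn18, a tight junction protein, was at 11.56 ± 0.19, the receptor Gprc5a at 11.30 ± 0.11 and the chloride channel protein Clic5 at 11.28 ± 0.20. Col4a3 and Col4a4, chains of the alveolar basement membrane collagen, had the wider spreads, 9.08 ± 0.25 and 7.61 ± 0.24. Transport genes of the alveolar surface were above background in 14 of 15 cases. The 3 subunits of the epithelial sodium channel, which draws fluid out of the airspace, were at 10.82 ± 0.22 (Scnn1a), 8.51 ± 0.09 (Scnn1b) and 9.28 ± 0.14 (Scnn1g), and the water channel Aqp5 of type 1 cells was at 9.62 ± 0.08. The endothelial water channel Aqp1 was at 10.38 ± 0.23, whereas Aqp4, a water channel of airway epithelium, lay close to background with levels from 5.16 to 6.23. Aqp3, the water channel of basal cells, was above background on 0 arrays and was the 1 transport gene that did not pass.

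Airway secretory genes included the brightest probe set of the array and several of the most variable ones. Scgb1a1, the club cell secretory protein, was the brightest on each of the 6 arrays, at 13.35, and quantile normalisation gives the brightest probe set the same value on every array, so its spread is not known from these values. On the deposited scale it ran from 13.17 to 13.46. Cyp2f2, a monooxygenase typical of mouse club cells, was at 12.76 ± 0.08, and the carbonyl reductase Cbr2 at 13.09 ± 0.08. The gel-forming mucin Muc5b was above background at 7.07 ± 0.43, while Muc5ac, the mucin of goblet cells, was above background on 0 arrays. Clca1, a secreted goblet cell protein, was above background on array 14 alone, at 8.17, against 3.05 to 4.37 on the other 5.

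Ciliated cell genes were above background in 19 of 20 cases, with the lipid-binding protein Sec14l3 at 11.50 ± 0.15 and the tubulin-binding protein Tppp3 at 10.81 ± 0.10. The ciliated list had its lowest mean on array 17, 7.87, and its values on the other arrays lay between 8.04 and 8.32. Basal cells are the progenitors of the trachea and large airways, and 0 of 8 of their genes passed on all 6 arrays. Krt5, the basal keratin, was at 3.29 ± 0.14 and Trp63, their defining transcription factor, at 4.12 ± 0.53, both under the background threshold. Of the neuroendocrine genes 2 of 8 passed, the synaptic vesicle protein Syp (5.90 ± 0.11) and the ubiquitin hydrolase Uchl1 (5.69 ± 0.40), whereas the granule proteins Chga and Chgb were at 3.26 ± 0.24 and 3.02 ± 0.35.

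Of the endothelial genes 27 of 28 were above background, with a list mean of 9.42 ± 0.09. The gene that did not pass on all arrays was Nos3, the endothelial nitric oxide synthase, which did so on 5. Tmem100, a membrane protein downstream of the receptor Acvrl1, was at 11.11 ± 0.12, and the adrenomedullin receptor Calcrl at 11.06 ± 0.15. Cdh5, the cadherin of endothelial junctions, was at 10.77 ± 0.17, and the TGF-beta co-receptor Eng at 10.73 ± 0.22. Ace, which makes angiotensin II and is abundant on lung capillaries, was at 10.32 ± 0.21. The aerocyte markers Car4, a carbonic anhydrase, and Ednrb, an endothelin receptor, were at 9.62 ± 0.18 and 9.05 ± 0.20. Vwf, the carrier of clotting factor VIII, had 8.10 at the lowest, 8.23 at the median and 9.01 at the highest. Array 17 was the high one, and the SD of Vwf was 0.09 without array 17. Lymphatic endothelium was represented by 6 of 7 genes, with the chemokine Ccl21a at 9.42 ± 0.06 as the brightest.

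Fibroblast genes were above background in 12 of 18 cases, with the actin-severing protein Gsn at 11.19 ± 0.23, the methyltransferase Inmt at 10.99 ± 0.13 and the matrix protein Npnt at 10.76 ± 0.24. Genes of smooth muscle and pericytes passed in 16 of 20 cases. Acta2, smooth muscle actin, was at 10.32 ± 0.24. Mylk, the kinase that starts contraction by phosphorylating myosin light chain, reached 9.97 on array 17 and lay between 8.90 and 9.39 on the others. Actg2, an actin of visceral smooth muscle, ran the other way, with its lowest values on arrays 17 and 18 (7.43 and 7.48). Mesothelial genes passed in 7 of 9 cases. Upk3b, a uroplakin of the pleural surface, had 7.16 at the lowest, 8.06 at the median and 8.67 at the highest. It was low on array 15 and high on array 17, and it was the 1 mesothelial gene with an SD above 0.5.

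Elastic fibres give the lung its recoil, and their microfibrils are built on fibrillin. Of 19 genes measured on this list, 13 were above background, 68.4%, against 52.5% of all genes. The microfibril proteins Mfap4 and Mfap2 were at 10.62 ± 0.25 and 9.73 ± 0.31, and fibulins Efemp1 and Fbln5 at 9.55 ± 0.17 and 9.33 ± 0.16. Eln, tropoelastin, had 6.45 at the lowest, 6.81 at the median and 7.83 at the highest. Arrays 13 and 14 were the high ones, at 7.46 and 7.83, and the other 4 lay between 6.45 and 6.81. The cross-linking enzymes Lox and Loxl1 were at 6.91 ± 0.32 and 7.41 ± 0.37. The latent TGF-beta binding proteins Ltbp3 and Ltbp4 were at 6.96 ± 0.40 and 7.94 ± 0.38, and each had its highest value on array 17 and its lowest on array 18.

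Collagen genes were above background in 13 of 41 cases, 31.7%, a share below the 52.5% of all genes. The brightest were Col4a3 and Col4a4, given above, and the fibrillar chains Col3a1 (7.61 ± 0.37) and Col1a2 (7.35 ± 0.19). Col6a3, a chain of beaded filaments, had 5.23 at the lowest, 6.18 at the median and 7.10 at the highest, low on array 16 and high on array 17. Among laminins and other basement membrane genes 11 of 15 passed, 73.3%. Sparc, a collagen-binding matrix protein, was at 11.48 ± 0.26, and Lama4, the laminin chain of vessels, at 8.63 ± 0.05. Of the metalloproteinases and their inhibitors 11 of 23 passed, 47.8%, a share near that of all genes. The brightest were the inhibitors Timp2 (9.95 ± 0.15) and Timp3 (9.44 ± 0.19). The gelatinase Mmp2 was at 7.13 ± 0.30, and Mmp14, the membrane enzyme that activates it, was lowest on array 18 (5.90) and between 6.67 and 7.01 elsewhere.

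All 14 TGF-beta pathway genes measured were above background. Among ligands, Tgfb1 was at 9.15 ± 0.19, Tgfb2 at 6.66 ± 0.36 and Tgfb3 at 7.00 ± 0.37. The receptors Tgfbr1, Tgfbr2 and Tgfbr3 were at 8.05 ± 0.13, 9.44 ± 0.10 and 8.38 ± 0.23, and the endothelial receptor Acvrl1 at 10.11 ± 0.09. The signal transducers Smad2, Smad3 and Smad4 had levels of 7.11 ± 0.09, 8.11 ± 0.24 and 8.94 ± 0.09. These receptors and transducers had SDs of at most 0.24. The wider spreads were those of the inhibitory Smad7 (5.71 to 6.89, low on array 16) and of the matricellular target Ccn2 (8.39 to 9.44, low on arrays 13 and 18 and high on array 17).

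Cyclic nucleotide phosphodiesterases end cAMP and cGMP signals, and Pde5a, which degrades cGMP, is the enzyme that sildenafil blocks. Its level was 9.27 at the lowest, 9.42 at the median and 9.68 at the highest, with an SD of 0.19. In all 11 of 23 phosphodiesterase genes measured were above background, 47.8%, against 52.5% of all genes. Pde4d was not measured by a matched probe set. Those specific for cAMP were Pde4b (9.35 ± 0.34), Pde4a (5.97 ± 0.32), Pde7a (7.33 ± 0.22), Pde7b (8.01 ± 0.11), Pde8a (7.14 ± 0.13) and Pde8b (7.65 ± 0.24). Pde3a (9.07 ± 0.08) and Pde3b (7.03 ± 0.08), enzymes that cGMP inhibits, also passed, as did the cGMP-specific Pde9a (8.83 ± 0.14) and Pde6d (6.17 ± 0.12), a carrier of prenylated proteins rather than an enzyme. Of the 11 genes that passed, Pde4b varied most, with 9.90 on array 17 and 8.94 on array 16 as its extremes. Of the 12 that did not pass, Pde2a and Pde1b were above background on 5 and 4 arrays, Pde4c on 2 and Pde6h on 1. Pde1a, Pde1c, Pde6a, Pde6b, Pde6c, Pde6g, Pde10a and Pde11a were so on 0 arrays, with means from 2.92 for Pde6c to 4.63 for Pde1a. Among these 8, Pde6a, Pde6b, Pde6c and Pde6g encode photoreceptor subunits, as does Pde6h.

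Nitric oxide and natriuretic peptides raise cGMP through soluble and membrane guanylyl cyclases. The soluble cyclase subunit Gucy1b1 was at 8.78 ± 0.14, and Gucy1a2, a partner subunit, was above background on 5 arrays at 5.34 ± 0.22. Gucy1a1, another partner subunit, was not measured by a matched probe set, so its level is not known here. Of the nitric oxide synthases, Nos3 was at 5.67 ± 0.34, while Nos1 (3.54 ± 0.35) and Nos2 (3.82 ± 0.53) were above background on 0 arrays. The natriuretic peptide receptors Npr1 and Npr2, which are cyclases, were at 7.10 ± 0.24 and 8.33 ± 0.17. Npr3, the clearance receptor that removes these peptides, had values of 8.50, 7.80, 7.81, 8.58, 9.80 and 7.99 on arrays 13 to 18. Array 17 was the high one, and the SD was 0.38 without array 17, against 0.76 over all 6. Nppa, atrial natriuretic peptide, had values of 8.72, 8.85, 9.08, 9.81, 8.00 and 8.78 in the same order of arrays, high on array 16 and low on array 17. Among the peptides Nppb (2.91 ± 0.28) and Nppc (3.88 ± 0.21), and among the cyclases Gucy2c (3.56 ± 0.16) and Gucy2e (2.97 ± 0.19), were above background on 0 arrays. The cGMP-dependent kinase Prkg1 passed on 5 arrays at 5.73 ± 0.49, and Prkg2 passed on all at 5.93 ± 0.24.

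Other vasoactive genes were above background in 11 of 18 cases, 61.1%, against 52.5% of all genes. Bmpr2, the receptor mutated in heritable pulmonary hypertension, was the brightest at 11.44 ± 0.17. The endothelin-converting enzyme Ece1 was at 8.47 ± 0.29, and the prostacyclin synthase Ptgis, at 7.90 ± 0.36, had its lowest value on array 14 and its highest on array 17.

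Alveolar macrophage genes varied little as a list, with a list mean of 8.26 ± 0.06. Of these genes 14 of 16 passed, although the list shares the carbonic anhydrase Car4 and the receptor Flt1 with endothelium. The chitinase-like protein Chil3 was at 10.25 ± 0.15 and the chemokine Ccl6 at 9.36 ± 0.21. Pparg, the transcription factor that these cells need, was highest on array 16 (8.11) and lowest on array 17 (7.14). Genes of interstitial macrophages and monocytes passed in 14 of 15 cases, among them the lipoprotein Apoe at 10.95 ± 0.12, the monocyte antigen Ly6c2 at 9.49 ± 0.17 and the growth factor receptor Csf1r at 8.40 ± 0.14. The mean of this list ran from 7.76 to 8.09, and its most variable members were Treml4 (6.96 ± 0.47) and Adgre4 (7.39 ± 0.38). Antigen presentation was represented by the MHC class II chains H2-Aa (10.90 ± 0.19), H2-Ab1 (10.57 ± 0.16) and H2-Eb1 (10.06 ± 0.12). Genes of T and NK cells passed in 16 of 19 cases, with the granzyme Gzma at 9.10 ± 0.32 and the homing receptor Ccr7 at 8.34 ± 0.18. Mast cell and basophil genes passed in 3 of 11 cases, Kit, Gata2 and Hdc, none of them restricted to these cells, and the tryptase Tpsb2 passed on 1 array.

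Club cells detoxify inhaled compounds, and 17 of 22 genes of xenobiotic metabolism were above background. The brightest besides Cyp2f2 (12.76 ± 0.08) were the glutathione transferase Gstm1 (11.79 ± 0.15) and the monooxygenases Fmo1 (11.59 ± 0.11) and Fmo2 (11.19 ± 0.24). All 20 antioxidant genes passed, with catalase, Cat, at 12.05 ± 0.17, the plasma peroxidase Gpx3 at 12.05 ± 0.06 and the cytosolic Gpx1 at 11.79 ± 0.14. Oxidative phosphorylation genes passed in 24 of 24 cases and ribosomal protein genes in 25 of 25. The ribosomal list had a mean of 11.09 ± 0.15. Glycolytic genes passed in 14 of 15 cases, with Gapdh at 11.24 ± 0.07, and cholesterol synthesis genes in 15 of 15, with the regulator Srebf2 at 10.01 ± 0.17. Housekeeping genes had the smallest spread of any list, 10.82 ± 0.03. Within it Actb, beta-actin, was at 12.58 ± 0.06 and Eef1a1, a translation factor, at 12.56 ± 0.04, whereas Hprt, a purine salvage enzyme used as a reference gene, was lowest on array 17 at 8.55 and between 9.16 and 9.37 elsewhere.

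The 20 brightest genes, leaving out predicted genes, were Scgb1a1, Sftpc, Cbr2, B2m, Lyz2, Cyp2f2, Fth1, Tmsb4x, Sftpa1, Ly6e, Actb, Eef1a1, Rps23, Serinc3, Dad1, Sftpb, S100a11, Srgn, Rpl21 and Itm2b. Of these B2m, the light chain of MHC class I, was at 12.95 ± 0.11, and Fth1, the ferritin heavy chain, at 12.73 ± 0.06. The 20th, Itm2b, a membrane protein, was at 12.20 ± 0.10.

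Where 52.5% of all genes were above background, cell cycle genes passed in 7 of 21 cases, 33.3%, with the replication clamp Pcna at 9.86 ± 0.15 and the mitotic cyclin Ccnb2 at 6.68 ± 0.41. Acute phase and cytokine genes passed in 6 of 23 cases, 26.1%, led by the epithelial alarmin Il33 at 9.17 ± 0.27 and the inhibitor Nfkbia at 9.12 ± 0.17. Interferon response genes passed in 12 of 20 cases, 60%. Rsad2, an antiviral enzyme, ran from 5.63 on array 14 to 7.10 on array 16, and Ifit1, which binds viral RNA, from 5.66 on array 15 to 6.93 on array 16. Bst2, which tethers budding viruses, was high on array 18 at 10.05.

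Across the genes above background the SD between the 6 arrays had a median of 0.189 log2 units, and for 95% of them it was at most 0.371. An SD above 0.5 was found in 90 genes, 0.88% of the 10225, and one above 1 in 2 genes, Jchain and Ngp. The range over the 6 arrays was above 1 log2 unit in 519 genes and under 0.25 in 849. The spread was smaller for brighter genes: with the genes split by mean level into 5 bins of 2045, the median SD was 0.236 in the dimmest bin and 0.15 in the brightest. Of the 90 genes, 49 were members of a list and 41 of none, and 26 of the 45 lists with at least 3 members above background had no member past 0.5. Lists were unequal in this: the count was 8 of 12 for neutrophil genes, 6 of 8 for red cell and platelet genes, 4 of 8 for adipose genes, 6 of 16 for clock genes and 5 of 17 for club and goblet cell genes, against 0 for endothelium, type 1 and type 2 cells, fibroblasts and alveolar macrophages. The lists were drawn up with earlier results of these data known, so the counts are descriptions.

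**Figure D2:**
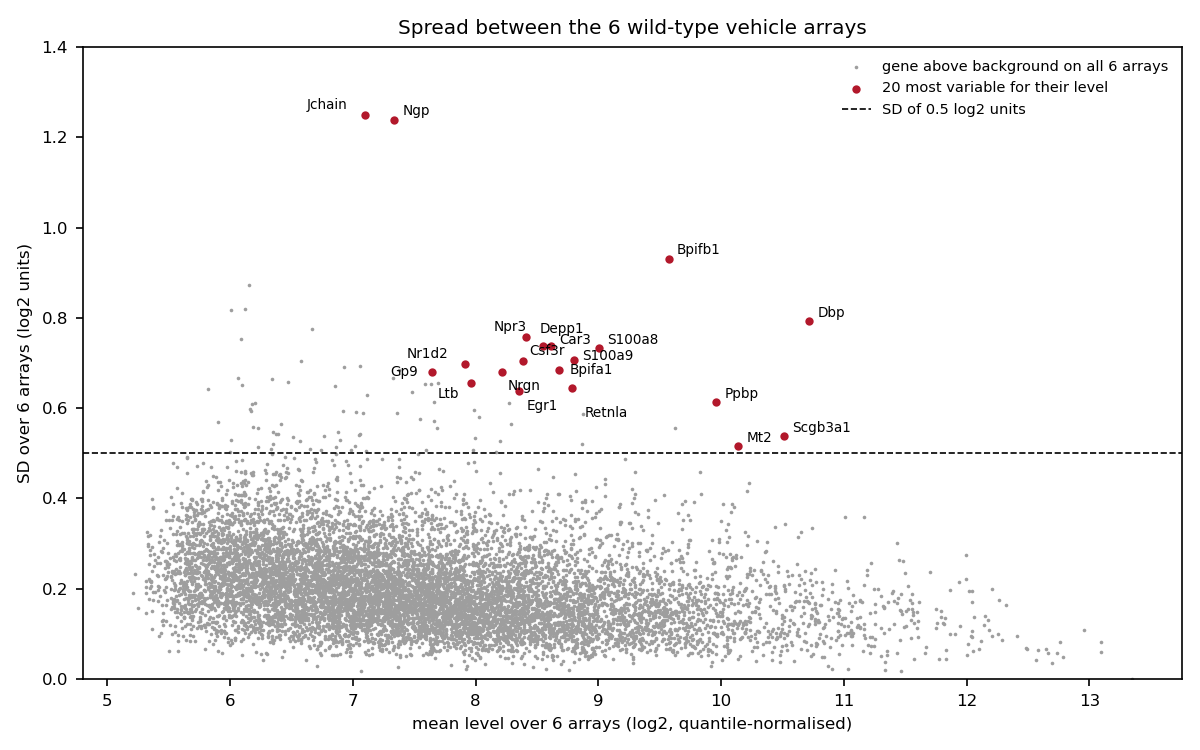
SD over the 6 wild-type vehicle arrays (vertical axis, log2 units) against mean level (horizontal axis, log2) for the 10225 genes above background on all 6 arrays; red points are the 20 genes with the largest SD for their level and the dashed line is an SD of 0.5. Jchain and Ngp lie alone above an SD of 1.

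The 20 genes with the largest SD for their level were Ngp, Bpifb1, Jchain, Dbp, S100a8, Npr3, S100a9, Depp1, Car3, Bpifa1, Csf3r, Nrgn, Ppbp, Retnla, Nr1d2, Scgb3a1, Egr1, Ltb, Gp9 and Mt2. Their SDs were chosen to be large and are a description. Mt2, a metallothionein, was the last inside the list, with an SD 3.81 times the median of genes of like level, and Alas2, the first enzyme of haem synthesis in red cells, was the first outside it, at 3.75 times.

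Arrays did not contribute equally. By Dixon's criterion, under which about 1 in 20 genes would be marked by chance, 673 genes, 6.58% of those above background, had 1 array set apart from the other 5. That array was 17 for 292 genes and 18 for 196, against 31, 38, 46 and 70 genes for arrays 13, 14, 15 and 16. On array 17 there were 25 genes higher than the median of the remaining 5 by over 1 log2 unit, and 26 genes lower by as much. By their medians, arrays 14 and 17 had the brightest background controls, at 3.19 and 3.26 against 2.60 to 2.88 on the other 4. The 95th percentile of these controls was lowest on the same arrays, at 5.02 and 4.94. Array 18 had the lowest median over all genes. The part of these technical measures in the gene values was not tested gene by gene.

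**Figure D3:**
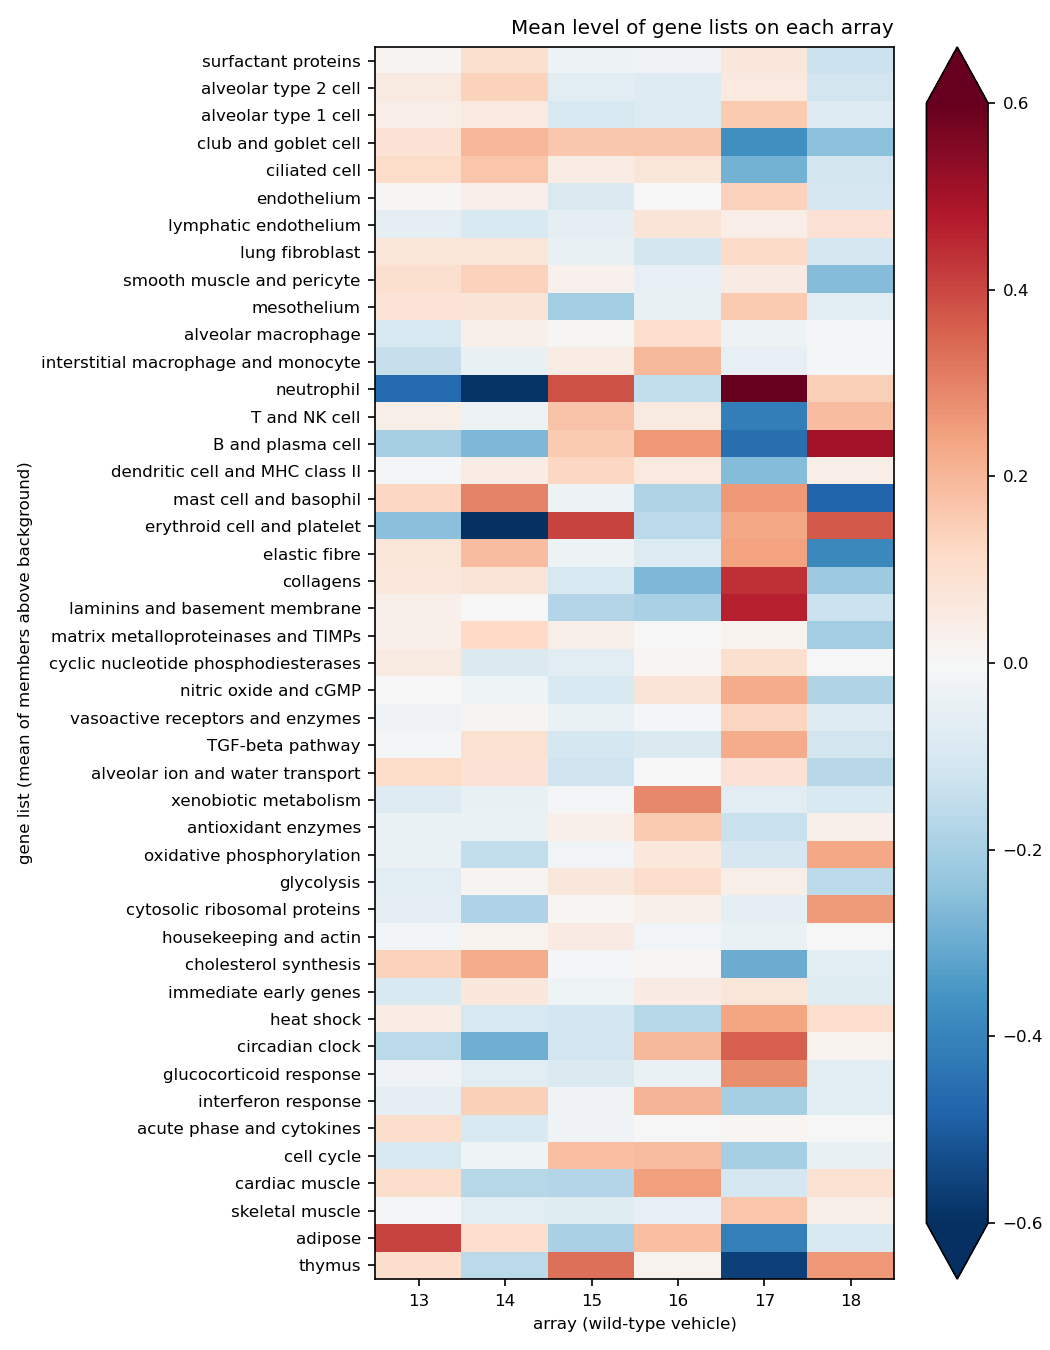
Mean of each gene list on each of the 6 wild-type vehicle arrays, as the difference from its mean over the arrays (log2 units, colour scale, ends at 0.6), for the 45 lists with at least 3 members above background. Strong colours include those of the neutrophil, B and plasma cell, red cell and platelet, adipose and thymus lists, with housekeeping genes near 0 on every array.

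Among genes of the Y chromosome, Eif2s3y and Uty had the largest SDs of all genes measured, but they passed the background rule on some arrays only and so are not among the 90. Eif2s3y, a translation factor subunit, had values of 2.87, 2.72, 8.52, 8.62, 8.74 and 8.63 on arrays 13 to 18. Uty and Kdm5d, a demethylase-related protein and a histone demethylase, had 2.91, 2.73, 7.97, 7.93, 7.33 and 7.84 and 3.00, 2.59, 6.26, 6.30, 6.33 and 6.17. All 3 were below the threshold on arrays 13 and 14 and above it on the other 4. Usp9y, Zfy1, Zfy2 and Sry, the testis-determining gene, were above background on 0 arrays, with means of 3.20, 3.02, 2.59 and 3.56. The labels give no sex for these mice.

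Circadian clock genes form a loop in which Arntl (also called Bmal1), paired with Clock or Npas2, activates genes through E-boxes, among them those of the Per, Cry and Nr1d repressors and of the output factor Dbp. Nr1d1 and Nr1d2 in turn repress Arntl through ROR elements. In these lungs 16 of 18 clock genes were above background. Arntl had values of 7.62, 7.89, 7.47, 6.72, 6.26 and 6.38 on arrays 13 to 18, and Npas2, above background on 3 arrays, had 5.98, 6.26, 5.70, 4.93, 4.62 and 5.01. Both were high on arrays 13, 14 and 15 and low on 16, 17 and 18. Dbp ran the other way, with 10.21, 9.45, 10.54, 11.37, 11.38 and 11.33, and its highest value was 3.81 times its lowest.

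Nr1d2 had 7.62, 6.92, 7.44, 8.29, 8.79 and 8.40, Nr1d1 9.67, 9.57, 9.91, 10.36, 10.57 and 10.00 and Per2 7.00, 6.57, 6.76, 7.59, 8.32 and 7.75 on the same arrays. Each had its lowest value on array 14 and its highest on array 17. Per3 (6.93 to 7.96), Ciart (5.47 to 7.04), a repressor of the loop, and Hlf (5.61 to 6.70), a relative of Dbp, had the same 2 extremes. Bhlhe41, another repressor, was lowest on array 13 at 6.31 and highest on array 16 at 7.72. Per1, which glucocorticoids also induce, was high on arrays 17 and 18 (8.69 and 8.48) and between 7.52 and 7.83 on the others. Other members moved little, with SDs of 0.14 for Cry1, 0.15 for Cry2, 0.16 for Nfil3 and 0.21 for Clock. No correlation over the 6 arrays is given for these genes because their values fell into separate clusters, and the hour of death is not in the labels.

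**Figure D4:**
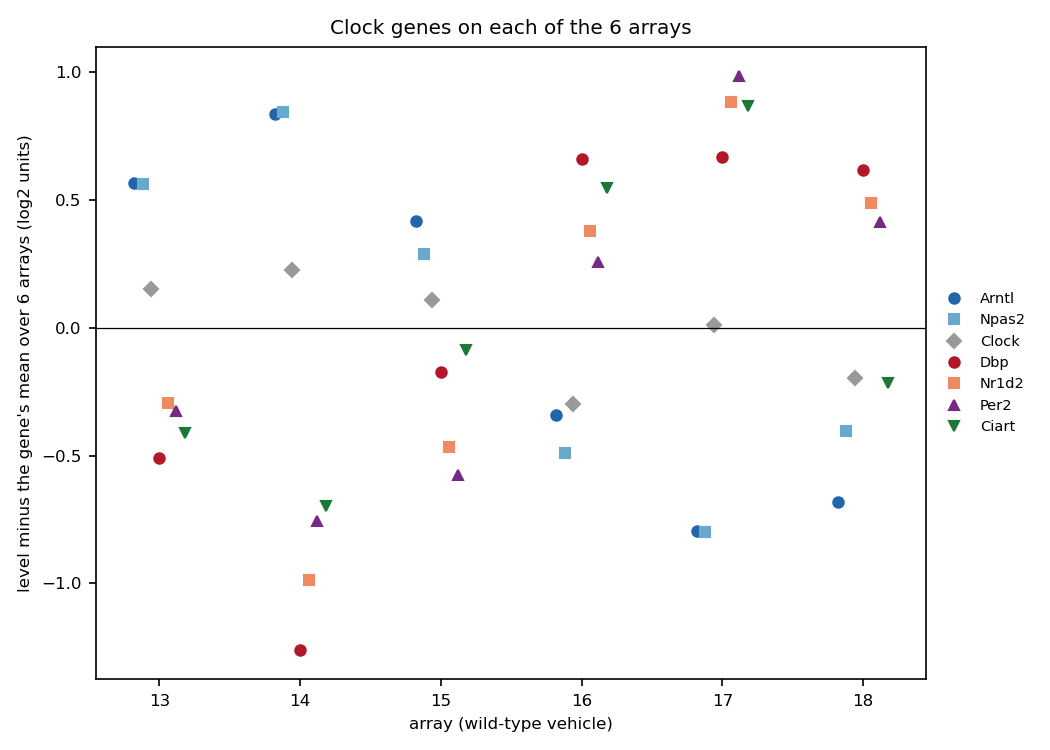
Level of 7 clock genes on each of the 6 wild-type vehicle arrays (horizontal axis) as the difference from the gene's own mean (vertical axis, log2 units). Arntl and Npas2 lie above 0 on arrays 13 to 15 and below it on 16 to 18, Dbp, Nr1d2 and Per2 lie on the opposite side on every array, and Clock moves least.

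The promoters of 4 of these genes are shown, each with a match to a motif given below, so they do not stand for the clock genes as a whole. Ciart was lowest on array 14 and highest on array 17, where Arntl was highest and lowest. Bhlhe41 was taken as another repressor that varied and Per1 as the best known target of the loop. Each is a RefSeq window of 300 bases, 250 before to 50 after the transcription start, on build GRCm38.p6, with every E-box (CACGTG, its own reverse complement) and every ROR motif (AGGTCA, or TGACCT where it lies on the opposite strand) in capitals. Ciart is chr3:95882179-95882478 on the minus strand, Per1 chr11:69098699-69098998 on the plus strand, Bhlhe41 chr6:145865371-145865670 on the minus strand and Arntl chr7:113207261-113207560 on the plus strand.
Ciart: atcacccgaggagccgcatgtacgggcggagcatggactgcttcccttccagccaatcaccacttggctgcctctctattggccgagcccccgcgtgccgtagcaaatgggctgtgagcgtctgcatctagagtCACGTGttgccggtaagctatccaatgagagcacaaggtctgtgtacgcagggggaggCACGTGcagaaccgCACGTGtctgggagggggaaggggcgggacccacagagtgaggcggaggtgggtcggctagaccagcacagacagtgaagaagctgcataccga
Per1: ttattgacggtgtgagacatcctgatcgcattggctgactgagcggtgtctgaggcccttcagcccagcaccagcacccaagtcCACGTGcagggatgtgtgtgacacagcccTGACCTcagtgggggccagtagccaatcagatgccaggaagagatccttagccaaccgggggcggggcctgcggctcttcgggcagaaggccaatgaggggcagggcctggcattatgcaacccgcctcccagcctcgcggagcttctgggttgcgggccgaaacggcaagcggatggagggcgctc
Bhlhe41: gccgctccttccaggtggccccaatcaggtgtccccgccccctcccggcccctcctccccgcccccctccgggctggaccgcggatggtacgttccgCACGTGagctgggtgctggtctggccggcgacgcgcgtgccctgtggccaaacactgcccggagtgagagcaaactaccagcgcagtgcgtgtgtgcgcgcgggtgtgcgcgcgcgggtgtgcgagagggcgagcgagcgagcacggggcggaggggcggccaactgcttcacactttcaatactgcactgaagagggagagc
Arntl: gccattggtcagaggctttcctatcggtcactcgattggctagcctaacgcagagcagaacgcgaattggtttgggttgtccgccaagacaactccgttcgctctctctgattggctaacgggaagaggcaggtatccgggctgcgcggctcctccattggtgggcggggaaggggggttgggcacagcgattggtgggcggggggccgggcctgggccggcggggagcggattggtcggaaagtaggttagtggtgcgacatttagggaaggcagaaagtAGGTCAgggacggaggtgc
The 3 E-boxes of Ciart begin 116, 58 and 44 bases before the start, that of Per1 166 and that of Bhlhe41 153 bases before it. The AGGTCA of Arntl begins 31 bases after the start. Per1 also has AGGTCA on the opposite strand, printed as TGACCT, that begins 137 bases before the start. Of all 32817 windows 7.15% held an E-box and 16.3% held AGGTCA. These shares are per window, and of the 21 windows of clock genes 6 held an E-box and 5 held AGGTCA. The 21 windows belong to 16 clock genes. Of these genes 5 had an E-box (Bhlhe41, Ciart, Cry1, Per1 and Tef) and 5 had AGGTCA (Arntl, Clock, Nfil3, Nr1d2 and Per1). Dbp, Nr1d1, Nr1d2, Per2 and Per3, which varied and are of the kinds named above as targets, were not among those with an E-box. Sequence outside the windows was not searched. A match is a description of these letters, the motifs were chosen after the values were seen, and Cry1, with an E-box, had an SD of 0.14.

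Neutrophils are short-lived white cells held in number in lung capillaries. Of their genes 12 of 17 were above background, and the list mean was 7.71, 7.59, 8.56, 8.03, 8.85 and 8.32 on arrays 13 to 18. Ngp, a granule protein, had 5.45, 6.39, 8.77, 7.84, 8.29 and 7.28. It was low on arrays 13 and 14 and highest on array 15, and its highest value was 10 times its lowest. S100a8 and S100a9, the calprotectin subunits, had 8.48, 7.96, 9.39, 8.81, 10.01 and 9.36 and 8.35, 7.76, 9.24, 8.60, 9.72 and 9.15, low on array 14 and high on array 17. The receptors Csf3r (7.91, 7.66, 8.91, 8.05, 9.53 and 8.25) and Cxcr2 (5.92, 5.83, 7.06, 6.19, 7.60 and 6.86), for the growth factor and chemokines that mobilise these cells, showed the same low and high arrays. So did the cytokine Il1b (6.79 to 8.48) and the gelatinase Mmp9 (6.15 to 7.58). Of the 12 genes above background, 8 were highest on array 17 and 8 were lowest on array 14. Other members differed: Retnlg was highest on array 18 (10.81) and Hdc on array 14 (9.47). Lcn2, an iron-binding protein that epithelium also makes, was bright and varied less, at 11.86 ± 0.20, and the myeloid precursor enzyme Mpo was above background on 0 arrays.

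Red cell and platelet genes varied in 2 patterns. Alas2 had values of 9.11, 8.87, 9.48, 10.09, 9.92 and 10.26 and Slc4a1, the anion exchanger of red cells, 5.89, 5.71, 6.43, 7.05, 7.59 and 7.33 on arrays 13 to 18, both lowest on arrays 13 and 14. Haemoglobin genes were not measured by a matched probe set. The platelet genes Ppbp (9.92, 9.24, 10.89, 9.33, 10.18 and 10.18), Pf4 (8.19, 7.60, 9.15, 7.93, 8.12 and 8.74) and Gp9 (7.53, 7.03, 8.73, 6.96, 7.47 and 8.14), which encode chemokines and a subunit of the receptor for Vwf, were all highest on array 15 and low on arrays 14 and 16. Nrgn, a calmodulin-binding protein that platelets carry as well as neurons, also had its highest value on array 15 (9.42), against 7.46 to 8.39 elsewhere.

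Genes of B and plasma cells passed in 11 of 12 cases, with list means of 7.26, 7.19, 7.62, 7.72, 7.01 and 7.96. Jchain, the chain that joins IgA and IgM into polymers, had 6.03, 7.06, 6.21, 7.84, 6.22 and 9.23. Array 18 was the high one, and the SD was 0.76 without array 18. The B cell receptor chains Cd79a (9.89, 9.95, 10.42, 10.09, 9.53 and 10.37) and Cd79b (8.99, 8.77, 9.59, 9.55, 8.61 and 9.78) were lowest on array 17. Ltb, a lymphotoxin needed for lymphoid tissue, reached 9.18 on array 18 and lay between 7.40 and 8.13 elsewhere, and Ly6d, an antigen of B cells as well as keratinocytes, reached 9.01. The T cell gene Cd3d was also highest on array 18 (6.93), whereas Cd3e had its low value on array 17 (7.11). The list means of T and NK cells and of dendritic cells and MHC class II were lowest on array 17 as well, at 6.85 and 8.12.

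Within the airway secretory list a group of defence proteins varied. Bpifb1, a secreted lipid-binding protein of the airway, had 10.03, 10.64, 10.08, 9.81, 8.26 and 8.60 on arrays 13 to 18. Its relative Bpifa1 had 8.47, 8.86, 9.60, 9.16, 7.64 and 8.35, the secretoglobin Scgb3a1 10.55, 11.08, 10.84, 10.72, 9.55 and 10.31 and the antibacterial lectin Reg3g 7.89, 8.19, 7.94, 8.37, 6.82 and 6.93. All 4 were lowest on array 17, and Bpifb1 and Reg3g were low on array 18 too. The ciliated cell genes Cdhr3, a cadherin, and Cyp2s1, a monooxygenase, were lowest on these 2 arrays as well, at 9.34 and 9.31 for Cdhr3 and 9.65 and 9.56 for Cyp2s1. Chad, chondroadherin, on both the airway and the cartilage list, was lowest on array 18 (6.73). The cartilage genes Acan and Sox9 were above background on 0 and 2 arrays.

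Array 16 differed in genes of xenobiotic metabolism, whose list mean was 10.29 there against 9.91 to 9.99 on the others. Cyp1a1, a monooxygenase induced through the aryl hydrocarbon receptor, had 4.87, 4.94, 5.60, 8.56, 6.44 and 5.11 on arrays 13 to 18 and was above background on 4 of them. Nqo1, a quinone reductase, had 5.35, 5.46, 6.39, 7.71, 5.71 and 6.33. Cyp2a5, which metabolises nicotine and coumarin and has a near-identical copy in Cyp2a4, had 8.61, 8.49, 8.81, 9.90, 8.80 and 8.58. Each of the 3 was highest on array 16, and the SD of Cyp2a5 was 0.14 without array 16. The peroxidase Gpx2 (7.48 to 8.67) and Mt2 (9.37 to 10.90) were also highest there.

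Some matrix genes and some genes that respond to glucocorticoids were highest on array 17. They were 9 of the 11 laminin and basement membrane genes above background, 10 of 13 collagens, 7 of 13 elastic fibre genes and 6 of 14 glucocorticoid response genes. This was not particular to these lists, as 10 of 14 TGF-beta pathway, 13 of 27 endothelial and 8 of 17 type 1 cell genes were also highest there. The share of all genes that were highest on array 17 is not given here. The list mean of metalloproteinases and their inhibitors was highest on array 14 instead, at 7.33, with 7.23 on array 17, and the brightest elastic fibre gene, Mfap4, was lowest on array 17 at 10.36. The laminin chain Lamc1 had 8.18 on array 17 and 6.57 to 7.28 on the others, and Col4a2, its partner in basement membranes, 7.62 against 6.31 to 6.60. List means on array 17 were 8.20 for laminins, 7.32 for collagens and 9.33 for the glucocorticoid list. Fkbp5, a co-chaperone of the glucocorticoid receptor, was at 8.10 there and between 6.58 and 7.15 elsewhere. Zbtb16, a transcriptional repressor that the hormone induces, had 7.96, 7.53, 6.96, 6.75, 8.45 and 7.26, high on array 17 and on array 13. The list mean of cholesterol synthesis was lowest on array 17 (7.52), as was Cyp51, which removes a methyl group from lanosterol, at 7.02.

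Stress and early response genes each had their own arrays. The chaperone Hspa1a, whose near-identical copy Hspa1b can share its probes, had 6.09, 5.25, 5.77, 5.46, 6.85 and 7.12 on arrays 13 to 18, and its co-chaperone Dnajb1 7.70, 7.16, 7.36, 7.11, 8.06 and 8.57. Both were highest on array 18, followed by array 17, but the mean of the heat shock list was highest on array 17, at 8.79 against 8.66 on array 18, as were 5 of its 11 members above background. Egr1, an immediate early transcription factor, had 8.00, 8.80, 8.66, 9.21, 7.93 and 7.51, high on array 16 and low on array 18. Fos, of the same class, was lowest on array 13 (6.13) and highest on array 16 (7.41). Depp1, a target of FOXO factors, had 8.86, 9.06, 8.70, 9.39, 7.53 and 7.77 and was low on arrays 17 and 18. Retnla, a secreted protein of alternatively activated macrophages and airway cells, had 8.79, 9.98, 8.71, 8.78, 8.10 and 8.37. It was high on array 14 alone, and its SD was 0.31 without array 14.

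Genes on the adipose tissue and heart lists also varied, and which cells made this RNA was not tested. Adipoq, the adipocyte hormone, had 7.17, 6.43, 6.44, 6.62, 5.15 and 6.25, Car3, a carbonic anhydrase of fat and muscle, 9.40, 8.87, 8.42, 9.18, 7.33 and 8.47, and the fatty acid carrier Fabp4, also made by capillary endothelium, 8.93, 7.92, 8.20, 8.78, 7.28 and 8.52. All 3 were highest on array 13 and lowest on array 17. Plin1 and Lep, which mark mature fat cells, were above background on 0 arrays. Cardiac genes passed in 16 of 23 cases, and the atrial light chains Myl4 (8.97 to 10.05) and Myl7 (8.17 to 9.26) were lowest on array 15. Myl2 and Myl3, the ventricular light chains, were above background on 0 arrays. Myl1, a fast muscle light chain, was high on arrays 15 and 16 (7.85 and 7.79) and low on 13 and 14.

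**Figure D5:**
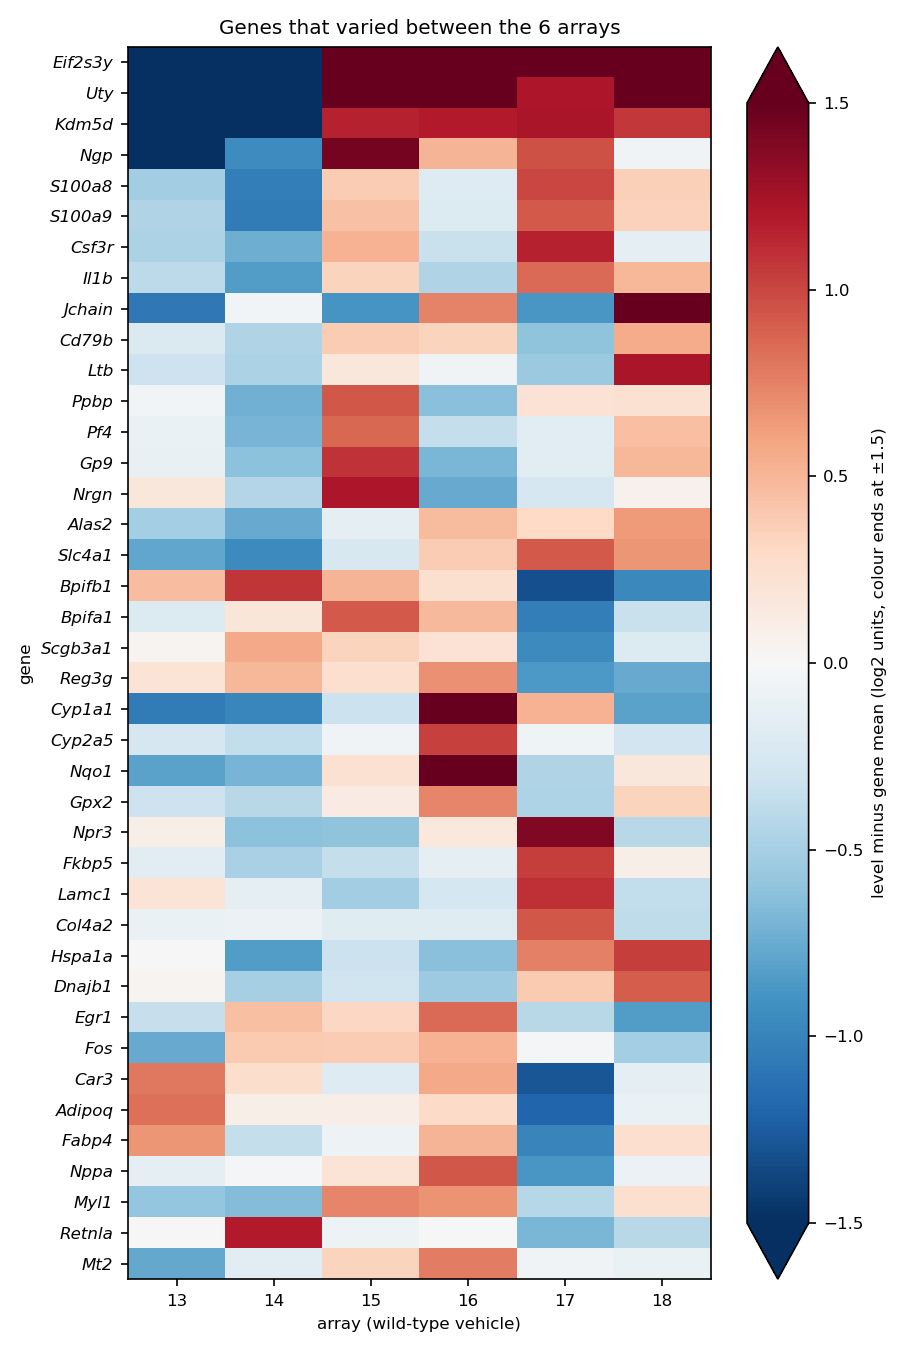
Level of genes that varied between the 6 wild-type vehicle arrays, as the difference from the gene's mean (log2 units, colour scale, ends at 1.5), with genes down the page and arrays across. Y chromosome genes change on arrays 13 and 14, platelet genes are high on array 15, Nqo1 and Cyp1a1 on array 16, Npr3 and Lamc1 on array 17 and Jchain on array 18.

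Relations between lists were tested over the 6 arrays with exact two-sided permutation tests, in which 720 orders allow no p below 0.00139. Of 45 lists, 0 had a mean related to the deposited median of the arrays after Benjamini-Hochberg adjustment, the lowest adjusted p being 0.542, and 3 had an unadjusted p under 0.05. The smallest possible p, in a list on its own, does not pass adjustment over 45 lists. The count of 0 therefore does not show a lack of relation to brightness. The 3 lists were metalloproteinases and their inhibitors (r = 0.891), ribosomal proteins (r = -0.823) and club and goblet cells (r = 0.814). Of 15 pairs of lists, 2 passed after adjustment and 6 before it. Oxidative phosphorylation and ribosomal protein genes had Pearson's r = 0.975 (exact permutation p = 0.00139, the smallest possible, adjusted p = 0.0208) and Spearman's rho = 1 (exact permutation p = 0.00278). Both lists were highest on array 18, at 9.08 and 11.34, and lowest on array 14, and r was 0.889 without the 2 arrays farthest from the median. Array 18 was also the dimmest before normalisation, and over the 6 arrays the deposited median had r = -0.823 with the ribosomal list (exact permutation p = 0.0472, adjusted p = 0.542) and r = -0.715 with the oxidative phosphorylation list (exact permutation p = 0.104, adjusted p = 0.602). Spearman's rho was -0.6 for both (exact permutation p = 0.242), and r was -0.811 and -0.636 without the 2 arrays farthest from the median. The part of brightness in this relation was not tested. Type 1 cells and endothelium had r = 0.907 (exact permutation p = 0.00556, adjusted p = 0.0417) and rho = 0.829 (exact permutation p = 0.0583), with r = 0.626 without the 2 farthest arrays, so this relation rests on those arrays. It was lost with quantile normalisation over 20 arrays (r = 0.908, exact permutation p = 0.00694, adjusted p = 0.0521). No batch is given in the labels, so no value within batches could be had.

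The least variable bright genes, apart from Scgb1a1, were Birc6, Rfx3, Rrp1, Laptm4a, Ifitm3, Arpc2, Traf7, Foxp1 and Polr3c. Birc6, a large inhibitor of apoptosis, was at 8.74 to 8.79, and Foxp1, a transcription factor of lung epithelium, at 11.00 to 11.06. Ifitm3, which blocks virus entry, was at 11.31 to 11.36, and Arpc2, a subunit of the actin-branching complex, at 10.88 to 10.95. Their SDs were at most 0.03 and were chosen to be small.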

How the data were processed

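RNA from lung, taken up in QIAzol and cleaned with an RNeasy kit, had an integrity number above 8.5 and was amplified from 700 pg with the GeneChip Pico kit before hybridisation to Affymetrix mouse arrays, per the labels' protocols. The deposited values are log2 levels per probe set that the authors made with RMA in Affymetrix Expression Console, per the submitters' processing notes, with versions not given in the sources used here. Of 29129 entries, 6987 were controls and 22142 transcript probe sets (identifiers starting TC). Of these 19527 had 1 gene symbol in the platform annotation, 0 had several and 2615 had none, and the probe set with the highest mean was kept for each of 19494 genes. Samples were grouped by title, and 4 columns of arrays that failed quality control held no values.

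The 6 arrays were quantile-normalised here over all transcript probe sets, and the 95th percentile of 23 antigenomic control probe sets set background on the deposited scale. SDs, ranges and list means (over members above background) were computed in Python 3.11.15 with NumPy 2.4.6, pandas 2.3.3 and SciPy 1.17.1, and the figures with matplotlib 3.10.9. The code was tested on simulated data. Of 1070 list entries 971 were matched by current symbol or, where an entry was not current, by a synonym of 1 gene. Relations between lists, and of lists to array medians, were tested with Pearson's r and Spearman's rho, exact two-sided permutation over 720 orders and Benjamini-Hochberg adjustment. Alternatives changed the normalisation, the probe set per gene, the background rule and the arrays included.

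The members and lists were chosen with earlier results of these data known. Named genes were the 20 brightest, the 20 with the largest SD for their level (SD divided by the median SD of genes in the same of 20 brightness bins), the 10 with the smallest such ratio among brighter genes, the 4 brightest and 2 most variable members of each list, and every surfactant, Y chromosome, phosphodiesterase and cGMP gene, leaving out predicted genes, small RNAs and receptor families. Other named genes, such as the further clock, TGF-beta, elastic fibre, sodium channel and secretory genes, Cxcr2, Il1b, Cyp1a1 and defining markers near background, were chosen after their values were seen. Promoters came from RefSeq for GRCm38.p6.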

Additional observations from a re-analysis of the deposited data

Results flagged for a closer look

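An array was marked where its gap to the nearest of the other 5, divided by the whole range, was above Dixon's critical value of 0.625 for 6 samples. Chance marks about 1 in 20 groups. Of 45 lists 6 were marked, and of 260 genes named in the text 21. Among all genes above background the share was 6.58%. The part of technical differences between arrays in these marks was not tested.

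Array 17 was set apart for 4 lists, with a gap ratio of 0.817 for the glucocorticoid response (9.33, high), 0.656 for laminins and basement membrane (8.20, high), 0.664 for dendritic cells and MHC class II (8.12, low) and 0.64 for T and NK cells (6.85, low). Array 16 was set apart for xenobiotic metabolism at 0.794 (10.29, high), and array 18 for metalloproteinases and their inhibitors at 0.635 (7.00, low).

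Among genes, array 17 was set apart as high for Col4a2 (ratio 0.777) and Vwf (0.753), and as low for the sterol demethylase Cyp51 (0.94), Hprt (0.755), Cd3e (0.742), Pcna (0.719) and Gzma (0.638). Cyp51 was at 7.02 there and between 7.73 and 7.78 on the other 5. Array 18 was low for the membrane protein Itm2b (0.784), the calcium-binding protein S100a11 (0.712), Mmp14 (0.691), the receptor Kit (0.673) and Lcn2 (0.627). Kit was at 8.19 there against 8.92 to 9.27 on the others.

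Array 14 was high for Clca1 (0.742), the matrix inhibitor Timp3 (0.644), Gprc5a (0.636) and Retnla (0.631), and low for Pde3b (0.629). Array 16 was high for Cyp2a5 (0.77) and low for Smad4 (0.633). Array 15 was low for the ciliogenesis factor Rfx3 (0.697), one of the least variable genes, and for Pde10a (0.633), which was below background on all 6 arrays.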

How the results depend on the processing

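With the deposited values left as they are, the median SD was 0.296, 472 genes had an SD above 0.5, 9 lists related to array brightness and 8 list pairs to each other. By construction these values keep the difference in brightness between arrays, and the SD of 39 of 45 lists and 117 of 260 named genes moved. Centring each array on its median left 5 list pairs, quantile normalisation over 20 arrays left 1 (type 1 cells with endothelium was lost, exact permutation test, adjusted p = 0.0521, and its adjusted p was 0.0156 to 0.0417 under the 4 other settings), and no filter on background gave 4 pairs and 465 genes with an SD above 0.5. The causes were not tested. With 20 arrays the median gene was 0.27 higher and the means of 34 lists moved by over 1 SD, all on a shifted scale. The median background probe set as threshold put 16667 genes above background, the highest 8465, at least 3 of 6 arrays 11562, and any probe set of a gene 10225. Leaving out each array in turn gave a median SD of 0.170 to 0.197, 68 (without array 17) to 135 (without array 13) genes with an SD above 0.5, and 10235 to 10697 genes above background. Averaging probe sets moved the SD of 0 lists. An alternative chosen after seeing the data, without the 2 arrays with the highest medians of background controls (14 and 17), gave 0.164, 73 and 10309. No paired analysis was possible because a single group was described. The n of 6 arrays and background signal limit what can be told of dim genes: 2084 genes passed on some arrays only.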

Other observations

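The 20 genes with the largest SD for their level on the 6 wild-type vehicle arrays were looked up in the other 14 arrays with values, as the SD within their own groups over the median of genes of like level. In 18 of 20 this ratio was above 2, against 588 genes, 5.75%, of all genes above background. Without array 9, a Marfan sildenafil array whose removal brought the median SD within groups to 0.186, against 0.205 with it, the ratio was again above 2 in 18 of 20, against 304 genes, 2.97%. The exceptions were Csf3r, with ratios of 1.39 over 14 arrays and 1.63 over 13, and Ltb, with 1.55 and 1.70. Retnla had the highest ratio of the 20 over the 14 arrays, 7.76, followed by Jchain at 7.55 and Bpifa1 at 7.17.

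For 12 pairs of genes picked on the 6 arrays, Pearson's r was computed over the other 14 arrays on values taken as differences from their group means, with 100000 two-sided permutations within groups and Benjamini-Hochberg adjustment over the 12. Arntl and Dbp had r = -0.937 and rho = -0.938 (permutation p = 4e-05 and 3e-05, adjusted p = 0.00024 and 0.00036), and r = -0.916 without the 2 farthest arrays. The platelet genes Pf4 and Ppbp had r = 0.917 and rho = 0.916 (permutation p = 0.00023 and 0.00032, adjusted p = 0.000552 and 0.000768), and r = 0.875 without the 2 farthest. Bpifb1 and Scgb3a1 had r = 0.939 and rho = 0.89 (permutation p = 0.00046 and 0.00089, adjusted p = 0.000789 and 0.00153), and r = 0.875 without the 2 farthest. Cyp1a1 and Nqo1 had r = 0.738 and rho = 0.662 (permutation p = 0.0113 and 0.0345, adjusted p = 0.0135 and 0.0377), with r = 0.573 without the 2 farthest. S100a8 and Csf3r had r = 0.617 and rho = 0.684 (permutation p = 0.0317 and 0.0129, adjusted p = 0.0346 and 0.0155), which fell to r = 0.349 without the 2 farthest arrays, so this relation rests on them. Jchain and Cd79b had r = 0.0217 and rho = 0.125 (permutation p = 0.95 and 0.715), and r = 0.541 without array 9 (permutation p = 0.0925). All pairs other than Jchain and Cd79b passed after adjustment, with and without array 9.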
